A study of Mus musculus with 4 samples.

Results

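The genes that set the CD4 or CD8 identity of a T cell were examined for H3K9me3, a histone mark of silent chromatin, in CD8+ T cells. The 8 genes, chosen by name with earlier results of these data known, were the coreceptor genes Cd4, Cd8a and Cd8b1, the Cd4 neighbour Lag3, and the transcription factor genes Zbtb7b, Runx3, Runx1 and Gata3. They are 8 of 21900 protein-coding genes in a RefSeq gene table (assembly GRCm38.p6, equal to mm10), which lists all 8. Each gene was taken with its body and 100 kb on each side, and overlapping windows were merged, which gave 6 loci with 1633 kb in all. These loci held 12 of the 47553 islands of day 3 and 13 of the 19989 islands of day 0.

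The data came from native ChIP-seq, in which chromatin is cut with micrococcal nuclease without cross-linking, on wild-type C57BL/6 mouse CD8+ T cells. The day 3 group was 1 library from cells kept for 3 days in culture with antibodies against CD3 and CD28 and with IL-2, and the day 0 group was 1 library from naive cells. Each immunoprecipitation started from 4000000 cells. The labels do not say how many mice gave the cells, nor whether they were pooled. Input libraries of both days are described in the labels and were not analysed here. Islands are stretches of merged windows of 200 bp that passed the authors' threshold, and each carries a whole number of reads. In total 10423178 reads lay in day 3 islands and 3402787 in day 0 islands, without scaling for depth or input. There was 1 library a day and so no test, and all differences are between 2 libraries, with no replicate check. Read density started at 34.1 reads per kb in the day 3 list and at 23.6 in the day 0 list, and 50.4% of the day 0 islands were less dense than every day 3 island. A day 0 island without a day 3 counterpart is therefore not by itself a loss of the mark, and a region without an island is a region that did not pass the threshold.

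Immature T cells carry both coreceptors and keep CD4, which recognises MHC class II, or CD8, which recognises MHC class I. In the CD4 lineage the factor ThPOK, encoded by Zbtb7b, holds back the CD8 programme, with Gata3 acting earlier. In the CD8 lineage Runx proteins silence Cd4 through an element in its first intron and silence Zbtb7b through an upstream element. The silent state of Cd4 is inherited through cell division in mature CD8+ T cells, whereas Cd8a and Cd8b1 are transcribed there under several enhancers spread over their shared locus.

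Of the 8 genes, 1 had an island in its body on day 3 (Runx1) and 1 on day 0 (Cd4), and 6 had none on either day. Among all protein-coding genes 27.1% had an island in the body on day 3 and 22.7% on day 0, while 66.1% had none on either day. An island on day 3 only, the state of Runx1, was found in 11.2% of all genes, an island on day 0 only, the state of Cd4, in 6.74%, and an island on both days, the state of none of the 8, in 15.9%. The share of the 8 genes without an island was thus close to that of all genes, whose bodies were of similar length (median 19.8 kb for the 8 genes and 17.1 kb for all). Runx1 lost its island once the day 3 list was shortened to the length of the day 0 list, and Cd4 lost its island when only islands at least as dense as the least dense of day 3 were kept.

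**Figure D1:**
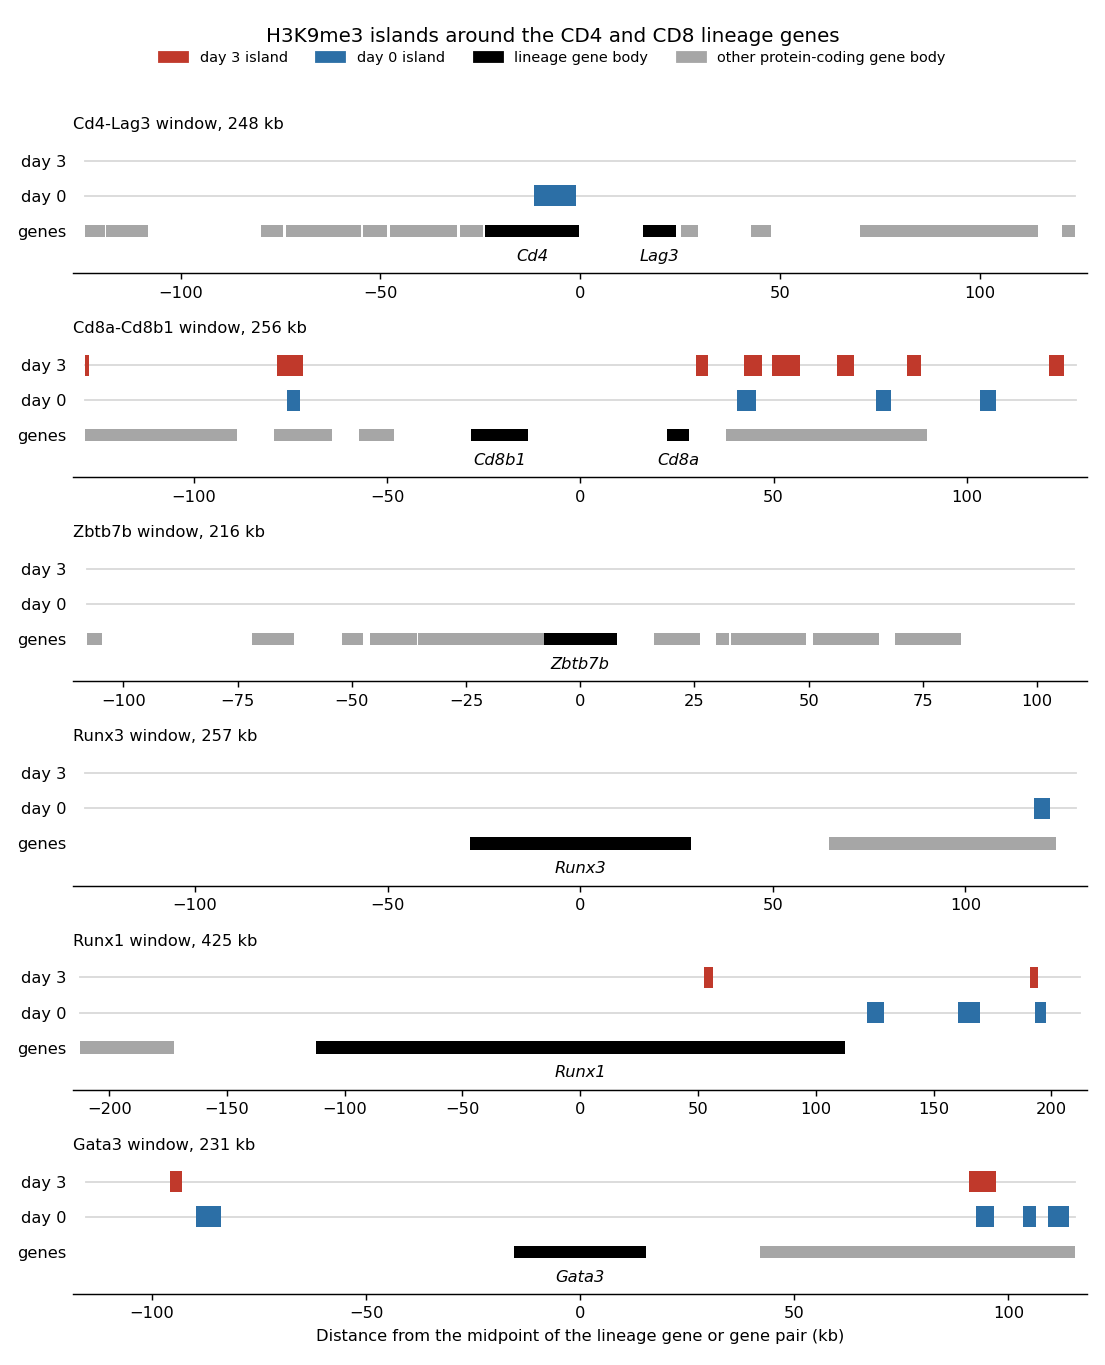
Islands of day 3 (red) and day 0 (blue) and protein-coding gene bodies in the 6 windows, plotted by distance in kb from the midpoint of the lineage gene or gene pair, with bars cut at the window borders. Cd4 holds the only island of its window, the Cd8b1 to Cd8a interval is free of islands, and the Zbtb7b window has none on either day.

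Cd4 (gene ID 12504, mm10 chromosome 6, 124864693 to 124888247) encodes the coreceptor that mature CD8+ T cells do not express. On day 3 its body had no island, and the nearest was 522 kb away. On day 0 a single island (124877001 to 124887600) covered 10.6 kb, or 45.0% of the body. It held 347 reads (exact 95% Poisson interval 311 to 386, for counting error only), which is 32.7 reads per kb. As background, mouse Cd4 is transcribed towards lower coordinates and the first intron lies in the upper part of its body. The island ended 647 bp inside the upper border of the gene and left the lower 12.3 kb uncovered. No coordinates of introns or of the silencing element were used, so whether the island overlaps that element was not examined. The gene stood far from other islands on both days. Of all protein-coding genes, 11.2% were at least as far from an island as Cd4 on day 3. No such share applies on day 0, when Cd4 itself held an island. On day 3 the island-free stretch around it ran over 1175 kb, and on day 0 the islands next to the one in Cd4 were 519 kb below and 637 kb above it.

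The Cd4 island was of ordinary density for its day. It reached 0.961 times the day 0 median of 34.1 reads per kb, and 34.6% of the day 0 islands were less dense. It was below the least dense island of day 3. This held for 7 day 0 islands of the 6 loci. Of these 7, only the island 80.5 kb above Runx1 (33.8 reads per kb) was overlapped by a day 3 island, of 45.6 reads per kb. The others, with the Cd4 island among them, overlapped none. With a limit at the density of the least dense day 3 island, the difference of -10.6 kb (day 3 minus day 0) in the Cd4 body became 0. The same came from a limit at the median of each list. For day 0 these limits are nearly the same, at 34.11 and 34.06 reads per kb, and are not separate checks. At 10.6 kb it was the longest of the 25 islands in the 6 loci, against day 3 islands of 2.6 to 7.2 kb and other day 0 islands of up to 9.40 kb.

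Among the 7889 protein-coding genes 0.5 to 2 times as long as Cd4, 25.02% had an island in the body on day 3 and 18.9% on day 0. Of these, 721 others had an island on day 0 and none on day 3. Among the 721, 27 had a higher share of their body covered on day 0 than Cd4. The 5 genes with the day 0 share closest to that of Cd4 were Rwdd3 (45.2%), Tvp23a (44.5%), Cyb5rl (44.4%), the iron exporter gene Slc40a1 (45.8%) and the homeobox gene Hoxc4 (45.8%), a likeness in 1 value from 1 library. Their day 0 islands held from 29.5 reads per kb in Cyb5rl to 48.2 in Slc40a1. The density of the Cd4 island lay within this range. The 721 leave out the 770 genes of this length class with an island on both days, which were not ranked. The place of Cd4 among the 721 also rests on an island that a density limit removed.

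Lag3 (gene ID 16768, chromosome 6, 124904359 to 124912434) encodes an inhibitory receptor related to CD4 that binds MHC class II and appears on activated T cells. It lies 16.1 kb above Cd4. Its body had no island on either day, nor had the interval between the genes. The nearest island was 562 kb away on day 3 and 16.8 kb away on day 0, where it was the island in Cd4. Of all protein-coding genes, 10.7% were at least as far from an island as Lag3 on day 3 and 64.0% on day 0. None of the 14 other protein-coding genes in the shared window, which include the glycolytic enzyme genes Tpi1 and Eno2 and the deubiquitinase gene Usp5, had an island on either day. Cd4 was thus the only gene of 16 in this gene-dense window with an island, and on day 0 alone. Most of the others were shorter than Cd4, with Cops7a (39.5 kb) and Zfp384 (28.9 kb) as the exceptions. Short genes rarely have an island. Among protein-coding genes in the length class of Lag3 (8.08 kb), 9.10% had one on day 3 and 6.10% on day 0. The count in this window therefore does not by itself set Cd4 apart.

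Cd8a (gene ID 12525, chromosome 6, 71373427 to 71379171) and Cd8b1 (gene ID 12526, 71322788 to 71337492) encode the alpha and beta chains of CD8, and both are active in this lineage (expression was not measured here). Neither body had an island on day 3 or on day 0, and the 35.9 kb between them (71337493 to 71373426) had none either. The genes lay in an island-free stretch of 101.8 kb on day 3 and 113.0 kb on day 0. Their distance to an island was not unusual. Of all protein-coding genes, 70.0% on day 3 and 67.0% on day 0 were at least as far from one as Cd8a. For Cd8b1 the shares were 45.7% and 48.8%. Genes as short as Cd8a rarely have an island, since those 0.5 to 2 times its length had one in 6.99% of cases on day 3 and 4.44% on day 0. For the length of Cd8b1 these shares were 16.4% and 11.7%.

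The sequence upstream of the Cd8a start is shown as an island-free promoter inside the active locus. The 250 bases come from RefSeq (GRCm38.p6, chr6:71373177-71373426, plus strand) and hold no match to the Runx core described below, so none are in capitals.
Cd8a: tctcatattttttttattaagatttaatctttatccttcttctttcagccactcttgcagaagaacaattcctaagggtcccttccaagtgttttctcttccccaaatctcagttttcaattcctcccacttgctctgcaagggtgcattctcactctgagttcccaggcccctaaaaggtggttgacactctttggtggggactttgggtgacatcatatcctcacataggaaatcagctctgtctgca
The window of 300 bases around this start was 7.52 kb from the nearest island on day 3 and 17.9 kb on day 0.

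Islands bordered the Cd8 locus on both sides. Above Cd8a, a day 3 island of 3.00 kb (71381001 to 71384000, 151 reads, interval 128 to 177, 50.3 reads per kb) began 1.83 kb past the end of the gene and overlapped no annotated gene. On day 0 the nearest island above Cd8a began 12.2 kb past its end. The neighbour Rmnd5a, which encodes a subunit of an E3 ubiquitin ligase complex, had 4 islands with 20.2 kb (38.8% of its body) on day 3 and 2 islands with 8.80 kb (16.9%) on day 0. Krcc1, on the other side of Cd8b1, had 6.60 kb (43.6%) covered on day 3 against 3.40 kb (22.4%) on day 0. Smyd1, a muscle methyltransferase gene at the edge of the window, had 2.6 kb covered on day 3 and none on day 0. The lncRNA gene Gm30582 carried 1 island within the window on each day, at different places.

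In the merged Cd8 window of 256 kb, islands covered 35.01 kb on day 3 and 16.2 kb on day 0. This was the only one of the 6 loci with more covered sequence on day 3, and the direction turned (-2.79 kb, day 3 minus day 0) when only islands of at least the median density of their list were kept. The whole difference of 18.8 kb lay outside the stretch between the outer ends of the 2 genes, where both days had 0 kb.

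**Figure D2:**
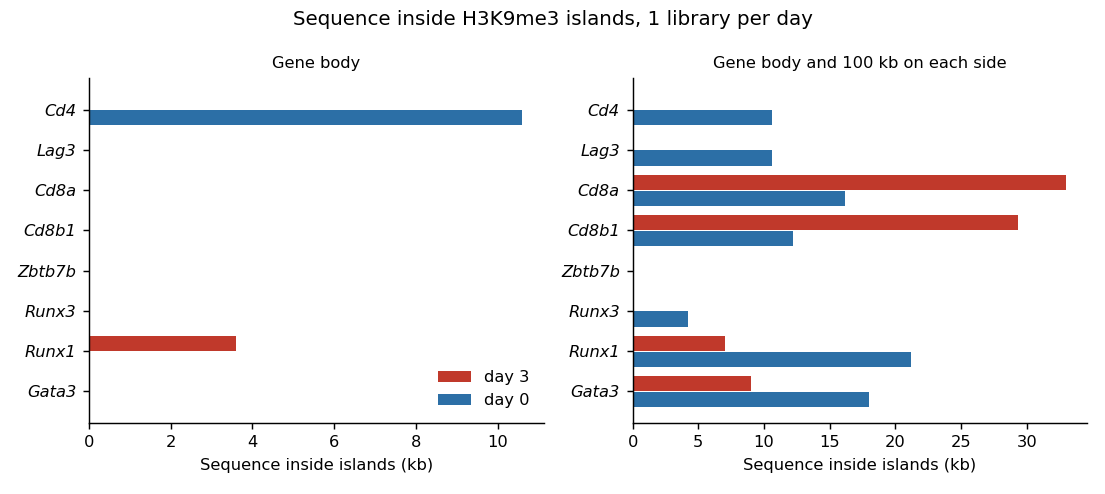
Sequence inside islands in kb (bars from 0) for the body of each gene and for its body with 100 kb on each side, on day 3 (red) and day 0 (blue), 1 library each. Bars in the bodies are limited to Runx1 on day 3 and Cd4 on day 0, while the windows of Cd8a and Cd8b1 overlap and share islands, as do those of Cd4 and Lag3.

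Zbtb7b (gene ID 22724, chromosome 3, 89377644 to 89393673), the ThPOK gene that is silent in CD8+ T cells, had no island in its body or in its window on either day. A window without an island on either day was found for 21% of all protein-coding genes. The nearest island was 268 kb away on day 3 and 167 kb away on day 0, and 17.9% and 22.2% of all genes were at least as far from one. The 13 other genes in the window, among them the ephrin genes Efna1, Efna3 and Efna4 and the adaptor gene Shc1, had none. Cd4 and Zbtb7b, which are both silenced through Runx proteins in the CD8 lineage, thus stood differently on day 0, with 45.0% and 0% of their bodies covered. This comparison is of 2 genes in 1 library and depends on an island that a density limit removed.

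Runx3 (gene ID 12399, chromosome 4, 135120645 to 135177990), the Runx family gene most tied to the CD8 lineage, had no island in its body on either day. Of the 5756 protein-coding genes 0.5 to 2 times as long, an island was found in 47.7% on day 3 and in 41.1% on day 0. The nearest island was 148 kb away on day 3, outside the window. On day 0 it was 89.0 kb away, an island of 4.20 kb with 135 reads (interval 113 to 160) and 32.1 reads per kb in the chloride channel gene Clic4. It too was less dense than every day 3 island, and either density limit, nearly the same for day 0, removed it.

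Runx1 (gene ID 12394, chromosome 16, 92601466 to 92826074), a Runx gene used widely in blood cells and in immature T cells, was the longest of the 8 at 225 kb. On day 3 a single island (92766401 to 92770000) covered 3.60 kb, or 1.60% of its body, with 162 reads (interval 138 to 189) and 45.0 reads per kb. It was among the less dense of its list, in which 6.19% of islands were less dense, and it also overlapped the lncRNA gene Gm30281. On day 0 the body had no island. Coverage of Runx1 was low for its length, since islands were found in 76.4% of the 1804 genes 0.5 to 2 times as long on day 3 and in 72.6% on day 0, with a median of 11 kb covered on day 3 and 8.40 kb on day 0.

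The islands near Runx1 lay above its upper border, where the gene, on the minus strand, starts. On day 3 there was 1 such island, 78.5 kb away, with 3.40 kb and 45.6 reads per kb. On day 0 there were 3, at 9.53, 47.9 and 80.5 kb, with 7, 9.40 and 4.80 kb and with 34.6, 33.5 and 33.8 reads per kb. None of these overlapped an annotated gene. The window held 7 kb of islands on day 3 and 21.2 kb on day 0, a difference of -14.2 kb. With a limit at the least dense day 3 island, both days held 7 kb.

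The upstream starts of the Runx genes share a tandem pair of Runx cores, and they are printed because the islands treated these starts differently. The core searched was TGTGGT or its reverse complement ACCACA, on both strands of each 300-base promoter window (250 bases before to 50 after a start). A core was found in 16.8% of the 32851 windows in the RefSeq table, and 2 or more in 1.81%. The tandem form ACCACAGAACCACA, on either strand, was found in 4 windows, which were those of Runx1, Runx2, Runx3 and the lncRNA gene Gm16225, whose window overlaps that of Runx3 and holds the same site. The stretches below are 26 bases from RefSeq (GRCm38.p6) with the cores in capitals, for Runx1 at chr16:92826026-92826051 (minus strand), Runx3 at chr4:135120506-135120531 (plus strand) and Runx2 at chr17:44814584-44814609 (minus strand).
Runx1: aaacaACCACAgaACCACAagttggg
Runx3: cctcaACCACAgaACCACAaggccag
Runx2: aaacaACCACAgaACCACAagtgcgg

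Runx2, the bone-forming member of the family, is not among the 8 genes and was followed here after this match was seen. All 300 bases of its promoter window lay inside a day 3 island (44811001 to 44820600) of 9.60 kb with 518 reads (interval 474 to 565) and 54.0 reads per kb, 3.797 kb of it within the gene. On day 0 the nearest island was 18.8 kb from the window. The day 3 island was kept with a limit at the median density of its list. It was also kept in the shortened day 3 list, which ranks islands by read count and so favours long ones. The limit at the least dense day 3 island removes no day 3 island and could not test it. The corresponding windows of Runx1 and Runx3 had no island on either day. That of Runx1 was 56.0 kb from the nearest island on day 3 and 9.28 kb on day 0, and that of Runx3 206 kb and 146 kb. All 8 promoter windows that RefSeq lists for Cd8a, Gata3, Runx1, Runx3 and Zbtb7b were free of islands on both days. Of all promoter windows, 3.14% had at least 1 bp in an island on day 3 and 2.35% on day 0, so that 0 of 8 is near the background.

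The Runx3 start with the tandem is given with its 250 upstream bases (chr4:135120395-135120644, plus strand), and so is the internal start of Zbtb7b (chr3:89387672-89387921, minus strand), the other window of the 8 genes with a core besides the upstream start of Runx1. Capitals mark the core.
Runx3: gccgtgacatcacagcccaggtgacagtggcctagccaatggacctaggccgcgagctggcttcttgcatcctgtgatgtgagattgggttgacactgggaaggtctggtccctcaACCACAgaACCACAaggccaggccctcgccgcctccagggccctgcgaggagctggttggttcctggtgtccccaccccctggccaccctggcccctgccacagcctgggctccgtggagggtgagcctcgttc
Zbtb7b: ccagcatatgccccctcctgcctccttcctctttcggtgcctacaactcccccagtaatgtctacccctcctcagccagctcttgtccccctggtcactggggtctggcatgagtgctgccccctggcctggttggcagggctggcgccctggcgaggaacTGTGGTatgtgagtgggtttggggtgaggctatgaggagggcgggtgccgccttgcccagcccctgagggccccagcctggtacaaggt
A match to these letters describes the sequence and does not show that a factor binds there.

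Gata3 (gene ID 14462, chromosome 2, 9857078 to 9887953), which encodes a zinc finger factor needed for CD4 cells and kept at a lower level in CD8+ cells, had no island in its body on either day. Of the 7558 genes 0.5 to 2 times as long, 30.9% had one on day 3 and 24.0% on day 0. Islands stood at a distance on each side. Below Gata3, a day 3 island of 2.80 kb (9776601 to 9779400, 186 reads, interval 160 to 215) was the densest of the 25 at 66.4 reads per kb, and 94.7% of the day 3 islands were less dense. A day 0 island of 5.80 kb (9782801 to 9788600, 177 reads, interval 152 to 205) lay near it without overlap and was the least dense of the 25 at 30.5 reads per kb. Above Gata3, the neighbour Taf3, which encodes a subunit of the general transcription factor TFIID, carried 1 island within the window on day 3 and 3 on day 0. Over its whole body Taf3 had 25.4 kb covered on day 3 and 17.4 kb on day 0. The Gata3 window held 9 kb of islands on day 3 and 18.0 kb on day 0, and this direction turned with flanks of 200 kb (11.6 kb, day 3 minus day 0) and with a limit at the least dense day 3 island (1.60 kb).

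Across the 6 loci, islands covered 51.0 kb on day 3 and 70.2 kb on day 0. The day 0 excess was in the Cd4 and Lag3, Runx1, Runx3 and Gata3 windows, with the Cd8 window going the other way and Zbtb7b at 0 on both days. Taken gene by gene, 4 of the 8 had an island in their window on day 3 and 7 on day 0, against 67.4% and 68% of all protein-coding genes. More bases were covered on day 0 in 32.7% of all such windows and more on day 3 in 46%. Coverage of the median window of the 8 genes was 0.824% on day 3 against 5.04% on day 0, and over all genes it was 2.89% against 2.57%. These values by gene are not independent. The windows of Cd4 and Lag3 both count the day 0 island in Cd4, and those of Cd8a and Cd8b1 share islands. The direction of the sum over the 6 loci turned with the same density limit (24.4 kb, day 3 minus day 0) and with flanks of 200 kb (25.4 kb). The islands just inside and outside the 100 kb border were in part close together. In Taf3 a day 0 island 93.8 kb from Gata3 was counted and the next, 106 kb away, was not, and within 50 kb outside the borders there were 9 islands on day 3 and 7 on day 0.

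The counts over all genes differed by the gene density of the window, without a steady order. Cd4, Lag3 and Zbtb7b each had 13 other protein-coding genes in their windows, Cd8a had 4, Cd8b1 had 5, and Runx3, Runx1 and Gata3 had 1 each. Among the 2458 genes with 12 or more protein-coding genes in the window, 39.1% had an island in the window on day 3 and 53.8% on day 0. Among the 10242 genes with 3 to 6, the shares were 76.2% and 74.1%. Among the 3233 genes with 1 or 2, the class of Runx3, Runx1 and Gata3, they were 69.9% and 62.6%. In this class 52.9% of windows were more covered on day 3 and 20.4% on day 0, whereas all 3 of these genes had more covered on day 0. This direction turned for Runx3 and Gata3 with flanks of 200 kb. With a limit at the least dense day 3 island it turned for Gata3, and the difference became 0 for Runx1 and Runx3. The difference was also 0 for Runx3 with the limit at the median density, and for Runx3 and Gata3 with flanks of 50 kb. An island in the window on day 0 only, as at Cd4 and Lag3, was found for 24.8% of the genes in the densest class and for 11.6% of all genes. No island on either day, as at Zbtb7b, was found for 36.1% of the genes in the densest class. The part of gene density in the results at Cd4 and Zbtb7b was not tested.

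**Figure D3:**
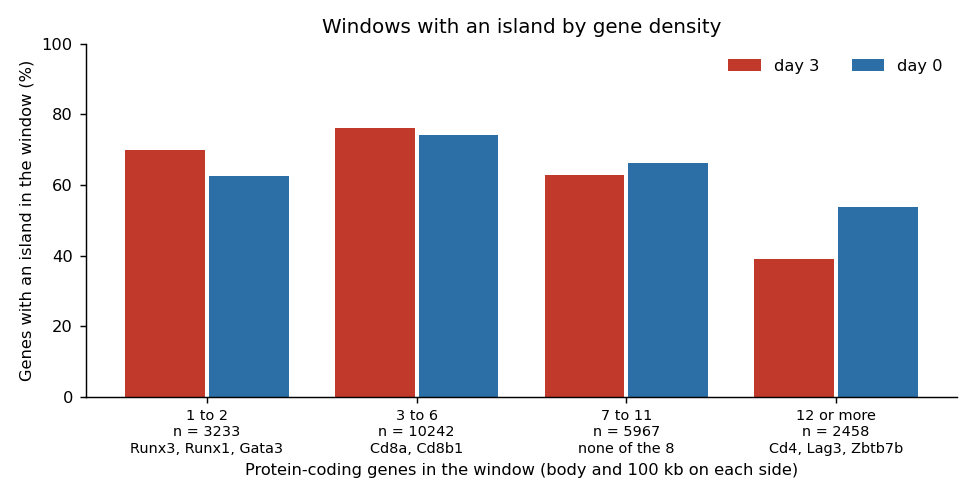
Share of protein-coding genes with at least 1 island in the body and 100 kb on each side (percent, bars from 0), by the number of protein-coding genes in that window, on day 3 (red) and day 0 (blue), with the lineage genes in each class named below. The class of 12 or more, which holds Cd4, Lag3 and Zbtb7b, has the lowest shares, 39.1% on day 3 and 53.8% on day 0.

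Islands of the 2 days overlapped at 4 places in the 6 loci. These were in Krcc1 (3.40 kb shared), in Rmnd5a nearest Cd8a (3.20 kb), in Taf3 (4.20 kb) and above Runx1 (1.40 kb). The day 0 islands in Krcc1 and Taf3 lay wholly inside the day 3 island. Read density at these places was 46.4 on day 3 and 35.6 on day 0 in Krcc1, 43.5 and 34.8 in Rmnd5a, 48.4 and 34.8 in Taf3, and 45.6 and 33.8 reads per kb above Runx1. The day 3 to day 0 ratios ran from 1.25 in Rmnd5a to 1.39 in Taf3, without correction for depth. All 4 were below the lower quartile of 1.43 over the 7306 overlapping pairs of the whole lists, whose median was 1.57. The Cd4 island, of day 0, overlapped no day 3 island. Lag3, Cd8a, Cd8b1, Zbtb7b and Runx3 had no island in the body on either day, so none could be shared. The share of all islands that overlap an island of the other day is not given here, so the 4 places have no background.

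**Figure D4:**
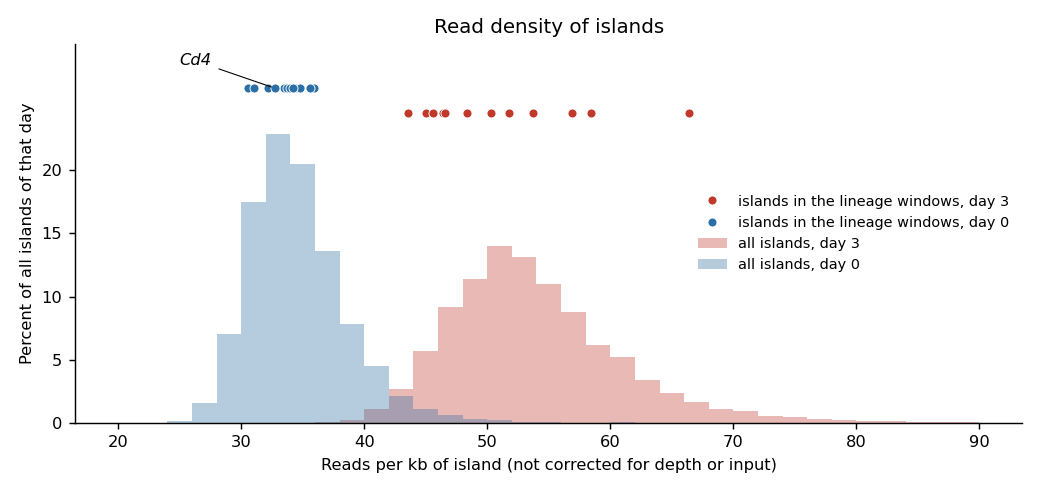
Read density of all islands (histograms, percent of the islands of that day, bins of 2 reads per kb, not corrected for depth or input) with the 12 day 3 islands (red points) and 13 day 0 islands (blue points) of the 6 loci above them, point height being arbitrary. The Cd4 island at 32.7 reads per kb sits inside the day 0 distribution and below the least dense day 3 island at 34.1, and 102 day 3 and 7 day 0 islands at 90 reads per kb or more are not drawn.

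The day 3 islands of the 6 loci were on the sparse side of their list, with 8 of 12 below its median of 52.9 reads per kb, and 7 of the 13 day 0 islands were below the day 0 median of 34.1. The same 7, which include those in Cd4 and Clic4, were less dense than every day 3 island, whose lowest density is nearly the day 0 median. Of the 12 day 3 islands 8 overlapped a protein-coding gene and 3 no annotated gene, and of the 13 day 0 islands 8 and 4 did.

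Other genes of the pathway were counted from fixed lists. Of 12 genes of coreceptor and T cell receptor signalling, islands lay in the body of 3 on day 3 and of 3 on day 0, with 8 free of them on both days. Lck, the kinase that coreceptors carry to the receptor, had none, nor had Zap70, Cd3d, Cd3e and Cd3g. Themis, needed for selection of T cells in the thymus, had 47.0 kb covered on day 3 against 26.2 kb on day 0. The phosphatase gene Ptprc had 18.9 kb on day 3 against 7.36 kb on day 0. The receptor chain gene Cd247 had 3.55 kb on day 3 only, and the inhibitory receptor gene Cd5 4.40 kb on day 0 only.

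The 30 regulators of the CD4 or CD8 choice and of the coreceptor genes had longer bodies (median 46.6 kb). Islands lay in 10 of them on day 3 and in 11 on day 0. These are 33.3% and 36.7% of the list, above the 27.1% and 22.7% of all genes, whose bodies were shorter. In 9 of the 30 there was an island on both days, whether or not these islands overlapped, against 15.9% of all genes. Among them were Tcf12, which encodes the E protein HEB (114.2 kb on day 3 and 73.2 kb on day 0), Tox (87.4 and 45.6 kb), Runx2 (30.8 and 8.80 kb) and Satb1, a genome organiser (18.0 and 5.60 kb). Cbfb, the partner subunit of all Runx proteins, had 8.39 kb covered on day 3 and 4.59 kb on day 0, in contrast to Runx3 with none. This contrast was picked after the values were seen.

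Of 17 helper T cell genes, 1 had an island on day 3 (Il21, 2.40 kb) and 3 on day 0. The 3 were Il4 (4.00 kb, 64.5% of its body), Ccr6 (4.40 kb) and Icos (3.20 kb). All 3 were, like Cd4, covered on day 0 alone, a state of 6.74% of all genes. The same state was that of 2 of 15 cytotoxic genes, 1 of 12 signalling genes and 2 of 30 regulators. Among the cell markers counted below, it was that of 2 of 8 myeloid, 1 of 7 B cell and 0 of 6 NK cell genes. The read density of these islands is not given here. Of 15 cytotoxic genes, islands lay in 2 on day 3 and in 3 on day 0. Klrd1 had 1.71 kb covered on day 3 and 4.91 kb on day 0, Klrk1 7.58 kb on day 3 only, Gzma 6.58 kb and Itgae 3.8 kb on day 0 only. Against the shares of all genes (27.1% on day 3 and 22.7% on day 0), the signalling list was near at 25% on each day. The helper list was lower at 5.88% and 17.6%, with a median body of 9.88 kb, and so was the cytotoxic list at 13.3% and 20%, with a median body of 7.8 kb.

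Markers of other cells that a CD8+ preparation could hold were counted in the same way, although a silencing mark measures no expression. Islands were found in 2 of 7 B cell genes on each day (Ms4a1 and Ebf1 on day 3, Cd79b and Ebf1 on day 0) and in 2 of 8 myeloid genes on each day (Adgre1 and S100a9 on day 3, Csf1r and Siglech on day 0). None of the 6 NK cell genes had one on either day. The B cell (28.6% on each day) and myeloid (25%) shares were near those of all genes (27.1% on day 3 and 22.7% on day 0).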

How the data were processed

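H3K9me3 native ChIP-seq islands of mouse CD8+ T cells on day 3 and day 0 were used, 1 library each. The authors deposited 1 island list per library with a read count per island and no header. Per the submitters' processing notes, Bowtie2, SICER version 1.1 and build mm10 were used. No source used here gives the threshold, gap size, duplicate handling or use of input, nor the reads kept per library. The column was read as raw counts, because its values are whole numbers. Coordinates were converted to 1-based positions. Coverage was computed with Python 3.11.15, pandas 2.3.3 and numpy 2.4.6, with a minimum overlap of 1 bp, and the code was tested on simulated data. Exact 95% Poisson intervals came from scipy 1.17.1 and cover counting error only, since reads without molecular identifiers are not independent molecules. Gene bodies came from RefSeq (GRCm38.p6), without exons.

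The members and lists were chosen with earlier results of these data known. Named genes were the members, genes with an island in their windows, the 5 genes most like Cd4 by day 0 coverage, and list genes with an island (all up to 5, otherwise the 4 with most covered). Other neighbours, Lck and its companions, and Cbfb were named after their values were seen, as were the gene density classes. Alternatives changed the islands kept, the flank and the overlap.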

Additional observations from a re-analysis of the deposited data

How the results depend on the processing

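No paired analysis was possible because each day has 1 library. When the day 3 list was shortened to its 19989 islands of highest read count, 0 of the 8 genes had a body island on day 3, and the sum over the 6 loci (day 3 minus day 0) was -37 kb instead of -19.2 kb. With islands of at least the median density, 0 genes had a body island on either day, the sum was -14.4 kb, the Cd4 body difference 0 kb and the Cd8 window -2.79 kb. With islands at least as dense as the least dense day 3 island, 0 genes had one on day 0, the Cd4 body difference was 0 kb, the sum 24.4 kb and Gata3 1.60 kb. Asking for 10% of the body left 0 genes on day 3. Flanks of 50 kb gave a sum of -0.232 kb. Flanks of 200 kb gave 25.4 kb, with Gata3 at 11.6 kb and Runx3 at 1.20 kb. The Cd8a and Cd8b1 locus stayed at 0 kb under every selection of islands, which was fixed in advance, since each selection only removes islands. Adding 10 kb on each side brought in 3 kb on day 3. Asking for 50% of the island in the body moved neither count. Of 30 values for single loci under these selections and flanks, 8 kept their value, 10 moved with the same sign, 7 moved to 0, 1 moved off 0 and the 4 given above changed sign. The 8 include Zbtb7b at 0 kb, which neither a selection of islands nor a shorter flank could change. The cause of these changes was not tested. The reads kept per library are unknown here, so what depth limits could not be measured.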
